A study of Arabidopsis thaliana with 8 samples.

Results

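YABBY genes encode a small family of plant-specific transcription factors, and 6 of them make up the set described here: FIL (also called YAB1), YAB2, YAB3, YAB5, INO and CRC. They were found on a one-colour Agilent array through the RefSeq accession that each probe carries, matched to the loci AT2G45190, AT1G08465, AT4G00180, AT2G26580, AT1G23420 and AT1G69180. That gave 11 probes of the 43603 on the array, and 5 of the 6 genes are among the 22671 genes that were bright enough to be tested. The sixth, INO, was not well above background on any array. The samples were whole seedlings of ecotype Col-0, 12 days old, raised at 22 °C on MS medium in light of about 100 µE m-2 s-1 (day length 16 h, night 8 h). The 8 arrays covered 4 genotypes, 2 arrays each. Beside the wild type (WT) these were the single mutants as1-1 and tfl2-1 and a double mutant that carries both alleles. All groups shared the ecotype, age and medium, and the labels describe neither lesion. WT and as1-1 were hybridised together on 1 slide, and tfl2-1 and the double mutant together on another. Whether the arrays of a genotype came from separate cultures is not stated, so the p-values measure the spread between these arrays, which may be technical.

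YABBY proteins combine a zinc finger with a DNA-binding YABBY domain that resembles an HMG box. FIL, YAB2, YAB3 and YAB5 are the vegetative members: they are transcribed in leaf primordia, mostly on the abaxial (lower) side, and together they are needed for blade outgrowth and for leaf identity. CRC acts in carpels and nectaries, and INO in the outer integument of ovules. AS1 encodes a MYB protein that works with AS2 in leaf primordia to hold back class I KNOX genes and some abaxial genes. TFL2, also known as LHP1, encodes a chromodomain protein that binds chromatin marked by Polycomb group proteins.

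Between 67.1% and 72.5% of the probes of an array exceeded background clearly, and no spot was saturated. The median signal was 170.1 to 238.9 per array. Levels are given as the log2 of the processed signal after the 75th percentile of each array was set to 0, so a level of 1 is a signal 2 times that percentile. Levels of different probes are not compared with each other. AS1 mRNA had levels of 0.83 and 0.90 in WT, 0.36 and 0.37 in as1-1, 0.52 and 0.58 in tfl2-1, and 0.82 and 0.95 in the double mutant. TFL2 mRNA lay between -0.41 and -0.23 in WT and as1-1, and between -1.38 and -0.99 in tfl2-1 and the double mutant. Because the lesions and the position of the probes on the transcripts are not given, these levels do not check the genotype labels.

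YAB5 moved most among the vegetative members, and it moved in opposite directions in the single mutants. Its level was 1.33 and 1.42 in WT, 2.95 and 3.02 in as1-1, -0.96 and -0.95 in tfl2-1, and 0.52 and 0.57 in the double mutant. In processed signal these were 3092 and 3137 units in WT, against 682 and 794 in tfl2-1. The 4 genotypes did not overlap, and the arrays of each genotype lay close together. The order was as1-1, WT, double mutant, tfl2-1, and each neighbouring pair in that order differed beyond the spread. In whole seedlings fewer cells of a type and less RNA per cell cannot be told apart.

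In as1-1 YAB5 was 3.05-fold higher than in WT, a log2 difference of 1.61 ± 0.0521 (SE, n = 2 per genotype, limma adjusted p = 2.90e-05). In tfl2-1 it was 5.03-fold lower than in WT (-2.33 ± 0.0521, adjusted p = 2.76e-06). The double mutant stood between, 1.78-fold below WT (-0.83, adjusted p = 4.22e-05). It was 5.43-fold below as1-1 (-2.44, adjusted p = 1.09e-06) and 2.83-fold above tfl2-1 (1.5, adjusted p = 5.76e-05). Among the 22671 genes, 149 had a larger rise than YAB5 in as1-1 and 124 had a larger fall in tfl2-1.

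**Figure D1:**
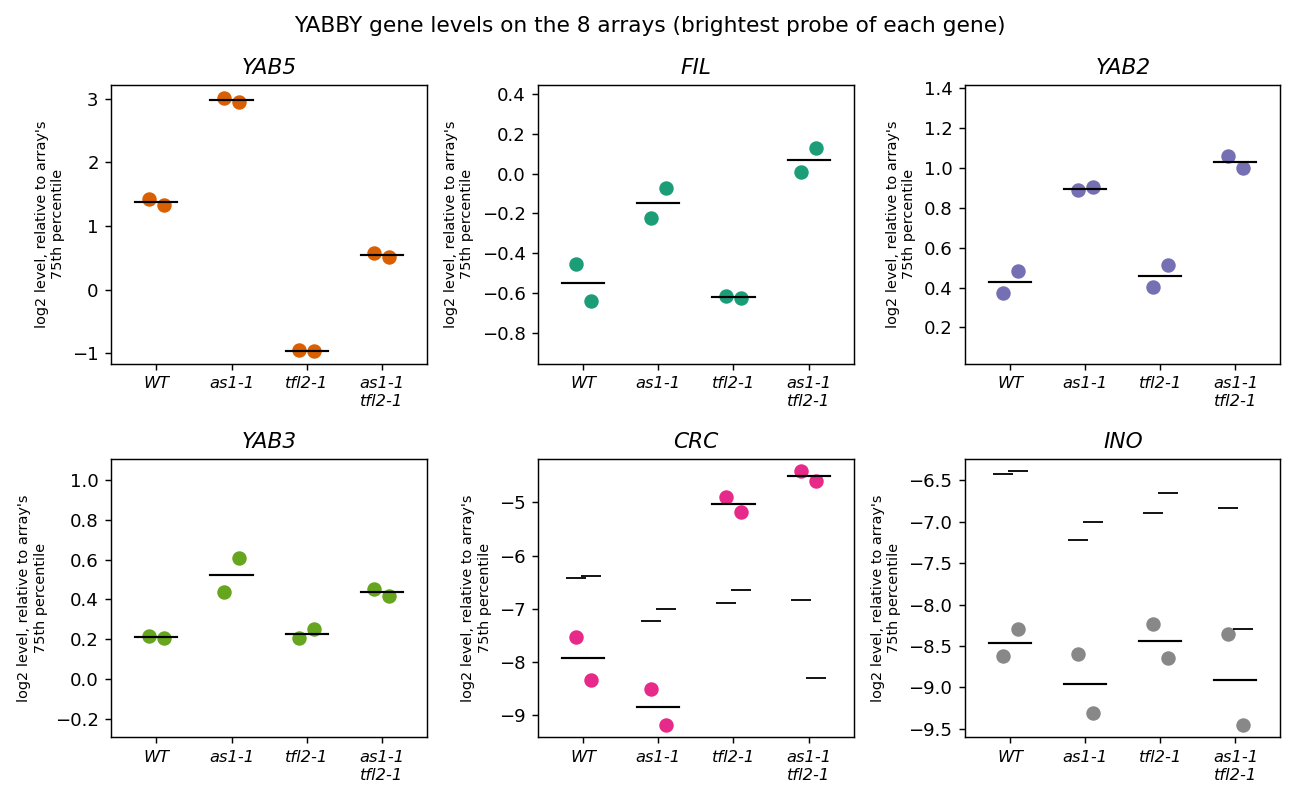
Log2 level of the brightest probe of each YABBY gene on the 8 arrays (y axis, relative to the 75th percentile of each array, a separate scale per panel) by genotype (x axis). Points are arrays and horizontal bars are means of 2 arrays. In the CRC and INO panels short black dashes mark the lowest level that was well above background on each array. YAB5 runs from about 3 in as1-1 down to about -1 in tfl2-1, CRC is above its dashes only in tfl2-1 and the double mutant, and INO is below its dashes everywhere.

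FIL, YAB2 and YAB3 followed another pattern, with small rises wherever as1-1 was present and little difference between tfl2-1 and WT. FIL had levels of -0.64 and -0.46 in WT, -0.22 and -0.07 in as1-1, -0.63 and -0.62 in tfl2-1, and 0.01 and 0.13 in the double mutant. YAB2 had 0.37 and 0.48 in WT, 0.89 and 0.91 in as1-1, 0.40 and 0.51 in tfl2-1, and 1.00 and 1.06 in the double mutant. For both genes the 4 arrays with as1-1 lay above the 4 arrays without it, and tfl2-1 overlapped WT. YAB3 had 0.20 and 0.22 in WT, 0.44 and 0.61 in as1-1, 0.20 and 0.25 in tfl2-1, and 0.42 and 0.45 in the double mutant. It too was higher on each array with as1-1 than on each array without it, by its brighter probe.

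Against WT, FIL rose 1.32-fold in as1-1 (log2 difference 0.40 ± 0.0859, SE, n = 2 per genotype, limma adjusted p = 0.0257). YAB2 rose 1.38-fold (0.47 ± 0.0628, adjusted p = 0.00509) and YAB3 1.24-fold (0.31 ± 0.0653, adjusted p = 0.0235). With YAB5, 4 of the 5 tested YABBY genes rose in as1-1 and none fell, where 7.09% of all tested genes rose and 12.1% fell. The median log2 difference of the 5, with CRC below background in both genotypes, was 0.40, against -0.04 over all genes tested. Only YAB2 and YAB5 rose in a fit restricted to that slide (4 arrays), without as1-1 replicate 2, without WT replicate 2, and without the filter on dim probes. The FIL call was also lost without as1-1 replicate 1 (adjusted p = 0.0501), and the YAB3 call without WT replicate 1 (0.0859) and with the mean of its probes (0.133).

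The double mutant gave the same direction for these 3 genes. FIL was 1.54-fold higher than in WT (0.62, adjusted p = 0.00115), YAB2 1.52-fold higher (0.60, adjusted p = 0.000332) and YAB3 1.17-fold higher (0.23, adjusted p = 0.0237). Of the 4 vegetative genes 3 rose and YAB5 fell, where 30.8% of all tested genes rose and 32.9% fell. CRC is left out of this count, because it entered the test only through the plants with tfl2-1, where it was above background. The YAB3 call was lost in 7 of 18 alternative fits, the 4 that leave out an array of WT or of the double mutant among them (adjusted p 0.0642 to 0.096 in those 4).

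In tfl2-1 the 3 genes did not pass the test. The 95% intervals of their log2 differences from WT ran from -0.28 to 0.14 for FIL, from -0.12 to 0.18 for YAB2 and from -0.14 to 0.18 for YAB3. Of the 4 vegetative genes none rose in tfl2-1 and 1 fell (YAB5), where 26.2% of all tested genes rose and 28.4% fell. Because tfl2-1 and WT lay on different slides, slide and genotype cannot be told apart here, nor where the double mutant is set against WT or as1-1. Log2 differences of the 8 spike-in probes were -0.24 to -0.06 between tfl2-1 and WT. For the double mutant they were -0.31 to -0.21 against WT and -0.18 to -0.11 against as1-1. The part of the slide in the YABBY differences was not tested.

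The order of levels was double mutant, as1-1, WT, tfl2-1 for FIL, and as1-1 and WT were the neighbours that differed past the threshold. For YAB2 it was double mutant, as1-1, tfl2-1, WT, and for YAB3 as1-1, double mutant, tfl2-1, WT. Adding tfl2-1 to as1-1 plants gave log2 differences of 0.22 for FIL (adjusted p = 0.0671, 95% interval 0.01 to 0.43), 0.13 for YAB2 (adjusted p = 0.108) and -0.09 for YAB3 (adjusted p = 0.286). FIL passed in 6 of 18 alternative fits of that comparison, with adjusted p of 0.0212 to 0.278. Of the 4 vegetative genes YAB5 alone passed in this comparison, and it fell, where 32.5% of all tested genes rose and 28.9% fell.

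Probes of 1 gene mostly moved together. The second probe of YAB5 was 2.95-fold higher in as1-1 and 6.11-fold lower in tfl2-1. The 3 probes of YAB2 gave log2 differences of 0.37 to 0.47 in as1-1 and of 0.59 to 0.76 in the double mutant. The probes of YAB3 did not move together in as1-1: the dimmer one differed from WT by -0.06 (adjusted p = 0.528), with levels of -2.03 and -1.95 in WT and -2.06 and -2.03 in as1-1. The rise of YAB3 therefore rests on 1 of its 2 probes. The dimmer probe of FIL fell 1.24-fold in tfl2-1 (-0.31, adjusted p = 0.0263), where the brighter one differed by -0.07. Over the 10 probes tested, 7 rose in as1-1 and none fell (7.62% and 9.8% of 30471 probes), 1 rose (that of CRC) and 3 fell in tfl2-1 (26.4% and 25.6%), and 7 rose, that of CRC included, and 2 fell in the double mutant (31.4% and 30.5%). Probe sequences were not used here, so hybridisation of a probe to related YABBY transcripts was not tested.

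**Figure D2:**
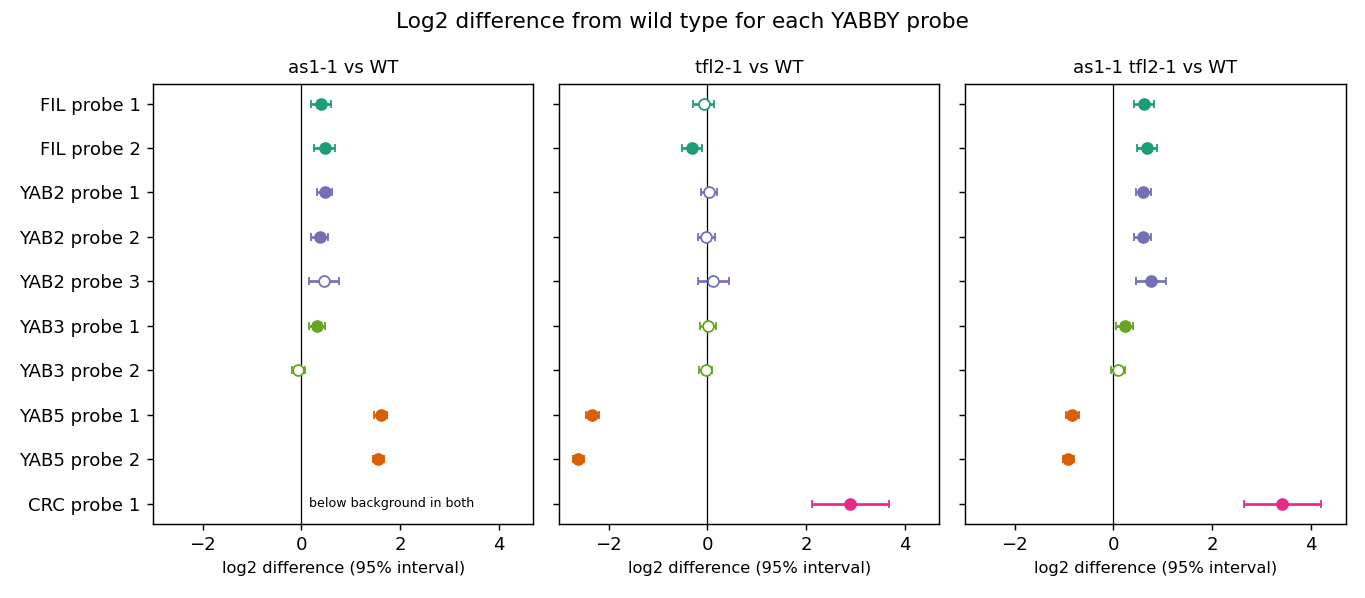
Log2 difference from WT (x axis) for each tested YABBY probe (rows, probe 1 being the brightest of a gene) in as1-1, tfl2-1 and the double mutant. Bars are 95% intervals from the limma fit over all probes, and filled points passed an adjusted p of 0.05. YAB5 points lie at 1.56 and 1.61 in as1-1 and at -2.61 and -2.33 in tfl2-1, while FIL, YAB2 and YAB3 stay within 0.76 of 0. CRC is drawn at its fitted value in tfl2-1 and the double mutant, with WT below background. In as1-1 it is not drawn, being below background in both genotypes.

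The effect of as1-1 can be read in both backgrounds, each within 1 slide and with no array in common. In tfl2-1 plants as1-1 raised YAB5 2.83-fold (log2 difference 1.5, 95% interval 1.37 to 1.63), against 1.61 (1.48 to 1.74) in plants with TFL2. For YAB2 the difference was 0.57 (adjusted p = 0.0016) beside 0.47, and for FIL 0.69 (adjusted p = 0.00247) beside 0.40. YAB3 differed by 0.21 (adjusted p = 0.0562) beside 0.31, and it passed in 9 of 19 alternative fits. Thus 3 of 5 tested members rose when as1-1 was added to tfl2-1 plants and none fell, where 13.5% of all tested genes rose and 18% fell. Of their probes, 7 of 10 rose and none fell (11.6% and 16.1% of all probes).

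The difference between these effects was tested as an interaction. It was 0.29 for FIL (95% interval 0.00 to 0.59, adjusted p = 0.143), 0.10 for YAB2 (-0.11 to 0.32) and -0.10 for YAB3 (-0.33 to 0.12). For YAB5 it was -0.11 (-0.29 to 0.07, adjusted p = 0.325), beside single-mutant differences of 1.61 and -2.33. By limma, 0 of 5 tested members passed, and 1 had an unadjusted p under 0.05 (CRC, 0.0183, with WT and as1-1 both below background). Of all tested genes 10.6% passed with a positive and 9.67% with a negative interaction. The dimmer probe of FIL did pass, at 0.52 (adjusted p = 0.0371), where 8.55% of all probes passed with a positive and 9.24% with a negative interaction. With the mean of its probes FIL passed as well, at 0.40 (adjusted p = 0.0459).

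**Figure D3:**
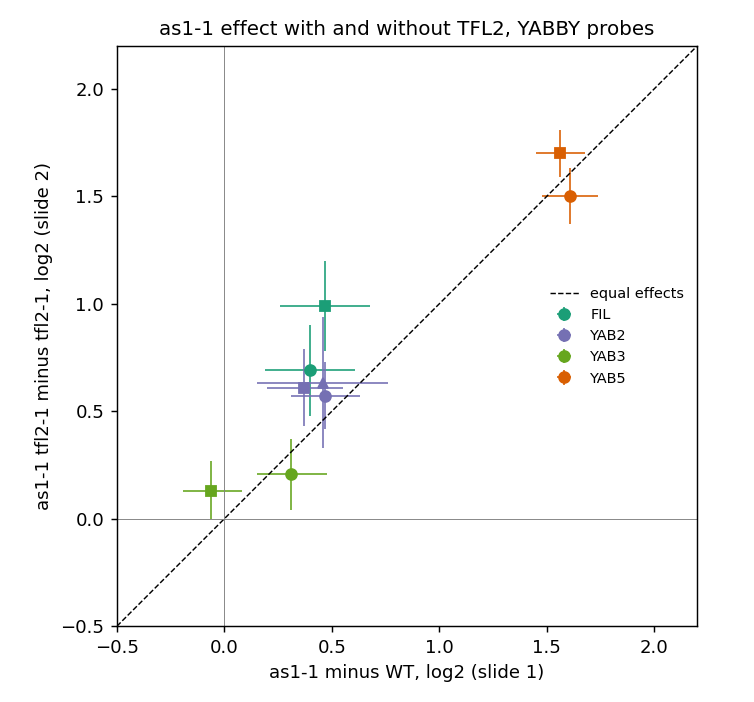
Log2 effect of as1-1 on each vegetative YABBY probe in plants with TFL2 (x axis, as1-1 minus WT) and in tfl2-1 plants (y axis, double mutant minus tfl2-1). Circles are the brightest probe of a gene, squares the second and the triangle the third, and bars are 95% intervals. The YAB5 probes lie near 1.6 on both axes, close to the dashed line of equal effects. The FIL probes lie above that line at 0.69 and 0.99 on the y axis.

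CRC, the carpel and nectary gene, was measured only in plants with tfl2-1. Its levels were -8.33 and -7.53 in WT and -9.17 and -8.51 in as1-1, not well above background on any of those arrays. They were -5.18 and -4.90 in tfl2-1 and -4.60 and -4.42 in the double mutant, well above background on all 4. In processed signal these were 44.3 and 42.8 units in tfl2-1 and 70.4 and 56.6 in the double mutant. For a gene below background in 1 group, the fold is a lower bound against the lowest signal that was well above background on each array of that group, or against the signal of the gene itself if higher.

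CRC was at least 2.58-fold higher in tfl2-1 than in WT (adjusted p = 0.000618) and at least 3.72-fold higher in the double mutant (adjusted p = 0.000206). It was at least 6.07-fold higher in the double mutant than in as1-1 (adjusted p = 8.53e-05). Since CRC passed the filter on dim probes only through the groups where it was high, these p-values describe the fit and lend no support to the direction. Between the double mutant and tfl2-1 the arrays did not overlap, but the log2 difference of 0.53 did not pass (95% interval -0.25 to 1.31, adjusted p = 0.253). It passed in 1 of 17 alternative fits, the one restricted to the slide of these 4 arrays (adjusted p = 0.047). With normexp background correction the fitted differences of CRC from WT were 0.58 in tfl2-1 and 0.78 in the double mutant, in place of 2.89 and 3.42. No fold is given between as1-1 and WT, both being below background.

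INO, the ovule integument gene, had signals of 1.95 to 4.58 units on the 8 arrays. The lowest signal well above background was 4.38 to 15.4 units per array, and INO was below it on each array. Transcripts of INO were therefore not detectable at this sensitivity in any of the 4 genotypes, which is not evidence that they were absent.

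Flower markers stood beside the rise of CRC. The 7 floral genes AP1, AP3, PI, SEP1, SEP2, SEP3 and AG all rose both in tfl2-1 and in the double mutant. Of all tested genes 26.2% and 30.8% rose there. AP3, SEP2 and AG were below background on all WT and as1-1 arrays, and AP1 on 1 of 2 arrays of each. Probes needed both arrays of a genotype above background, so these genes entered the test only through plants with tfl2-1, where they were high. In as1-1, where CRC was below background, 2 of the 7 rose (7.09% of all tested genes). These were PI, 3.19-fold (limma adjusted p = 5.42e-05), and SEP3, 1.39-fold (adjusted p = 0.00429). The summed linear level of the 7 genes, in units of the 75th percentile of the array, was 0.319 to 0.323 in WT and 0.697 to 0.725 in as1-1. It was 24.1 to 25.4 in tfl2-1 and 19.8 to 21.0 in the double mutant. Of 5 carpel and ovule markers, 5 rose in tfl2-1 (26.2% of all tested genes) and 4 in plants with both alleles (30.8%). Their sum was 1.41 to 1.42 in WT, 1.23 to 1.27 in as1-1, 2.62 to 2.72 in tfl2-1 and 3.25 to 3.37 in the double mutant. Most of that sum in WT and as1-1 came from BEL1, with levels of 0.44 on both WT arrays and 0.19 and 0.24 in as1-1, where it fell. SHP1, by contrast, rose 1.78-fold in as1-1 (adjusted p = 0.00184), 21.4-fold in tfl2-1 and 37.6-fold in the double mutant. In tfl2-1, SHP1, SHP2, STK and BEL1 were above background on both arrays and the ovule gene NZZ on 1. STK and NZZ were below it in WT and as1-1, and SHP2 was below it on 1 of 2 arrays of each. STK, NZZ and SHP2 therefore entered the test only through plants with tfl2-1, where they were high. The part of added flower tissue in the CRC result was not tested.

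Known regulators of CRC and INO were listed separately. AG, a floral identity gene upstream of CRC, was at least 46-fold higher in tfl2-1 and at least 52.2-fold higher in the double mutant. LFY, a floral meristem gene, was at least 4.88-fold and 4.32-fold higher. SUP, which limits INO in ovules, was at least 2.36-fold and 2.99-fold higher. SPT, a carpel gene that acts with CRC, rose 1.24-fold in as1-1, 2.1-fold in tfl2-1 and 3.29-fold in the double mutant. Of the 6 genes in the list 1 rose (SPT) and 1 fell (BEL1) in as1-1 (7.09% and 12.1% of all tested genes). In tfl2-1 5 rose and 1, ANT, fell (26.2% and 28.4%), and in the double mutant 4 rose (30.8%). AG, LFY and SUP are among the rises in tfl2-1 and the double mutant. They were below background in WT and as1-1, so they entered the test only through the groups where they were high.

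Leaf markers were lower where tfl2-1 was present. Of 16 photosynthesis genes, none rose and 1 fell in as1-1, 14 fell in tfl2-1 and 16 fell in the double mutant. Of all tested genes 12.1%, 28.4% and 32.9% fell in these comparisons. The 16 genes had median log2 differences of -0.08, -0.36 and -0.60. Their summed level was 3420 to 3600 in WT, 3230 to 3320 in as1-1, 2680 to 2910 in tfl2-1 and 2290 to 2440 in the double mutant. FIL, YAB2 and YAB3 did not follow this order, since they were highest in as1-1 or the double mutant. YAB5 fell in tfl2-1 by 2.33 on the log2 scale, beside the median of -0.36 for the leaf markers. The part of leaf content in these values was not tested. Of the 4 meristem markers 2 were tested, CLV1 and STM, and of 7 root markers 4 were tested. Their summed levels were 5.96 to 7.41 and 2.05 to 2.86 over all arrays, highest in the double mutant. CLV1 made up most of the meristem sum and passed in none of the mutants, while STM was 4.46-fold higher in the double mutant. SCR and SHR made up most of the root sum. Both rose in the double mutant (log2 differences 0.38 and 0.48, limma adjusted p = 0.00142 and 0.000521). COBL9 passed in none of the mutants. WOX5, a marker of the root stem cell niche, went the other way and was dim. It was above background on both WT arrays, on 1 of 2 as1-1 arrays and on no array with tfl2-1. WOX5 was lower in as1-1 (-1.06, adjusted p = 0.00795), at least 2.51-fold lower in tfl2-1 and at least 4.59-fold lower in the double mutant. It passed the filter on dim probes only through WT, where it was high, so the p-value lends no support to the direction.

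Other genes of the leaf polarity pathway were set beside the YABBY genes. Of 6 abaxial genes, the KANADI genes and the auxin response factors ETT and ARF4, 5 were tested and ATS was not. In as1-1 3 rose and 1 fell (7.09% and 12.1% of all genes), in tfl2-1 1 rose (26.2%), and in the double mutant 4 rose and 1 fell (30.8% and 32.9%). The count for tfl2-1 is near its share over all genes. Their median log2 difference was 0.24, 0.12 and 0.69 in these comparisons. KAN2 was 1.79-fold, ETT 1.65-fold and KAN1 1.61-fold higher in the double mutant, and KAN3 was 1.54-fold lower. KAN3 was also 1.48-fold lower in as1-1 (adjusted p = 0.0111). KANADI proteins and ETT promote abaxial identity in leaves.

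Of 6 adaxial genes, the HD-ZIP III genes and AS2, AS2 and REV rose and ATHB8 fell in the double mutant. Of all tested genes 30.8% rose and 32.9% fell in the double mutant. AS2, whose protein forms a complex with AS1, was 2.86-fold higher in the double mutant (log2 difference 1.52 ± 0.108), 1.96-fold higher in as1-1 and 1.3-fold higher in tfl2-1. REV, which promotes the adaxial side, was 1.41-fold higher in the double mutant but 1.19-fold lower in as1-1 (adjusted p = 0.0372). ATHB8, a gene of vascular development, was 1.5-fold lower in the double mutant. In all 1 rose and 1 fell in as1-1, near the 7.09% and 12.1% of all genes, and 4 rose and 1 fell in tfl2-1 (26.2% and 28.4%), with medians of -0.10 and 0.24.

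Cofactor genes, whose products LUG, LUH, SEU and SLK1 to SLK3 form complexes with YABBY proteins, were listed as well. By limma 0 of 6 passed in as1-1 and 0 of 6 in the double mutant, with 1 at an unadjusted p under 0.05 in each. Of all tested genes 7.09% rose and 12.1% fell in as1-1, against 30.8% and 32.9% in the double mutant. SLK3 fell 1.11-fold in tfl2-1 (-0.15, adjusted p = 0.0384). Medians were -0.06, -0.06 and 0.04 in as1-1, tfl2-1 and the double mutant.

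**Figure D4:**
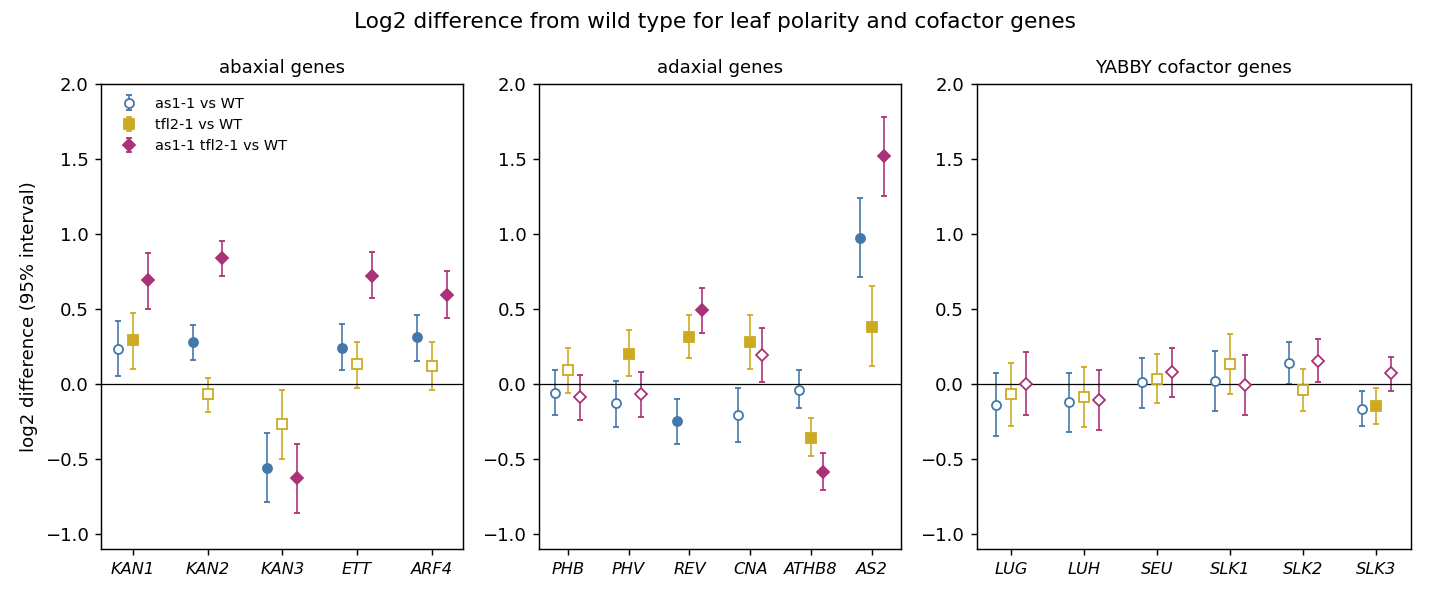
Log2 difference from WT (y axis) of abaxial, adaxial and YABBY cofactor genes (x axis) in as1-1 (circles), tfl2-1 (squares) and the double mutant (diamonds), with 95% intervals. Filled symbols passed an adjusted p of 0.05. KAN1, KAN2, ETT and ARF4 lie between 0.59 and 0.84 in the double mutant, KAN3 lies at -0.63, and the cofactors stay within 0.17 of 0.

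Genes that YABBY proteins are reported to regulate were set beside the family. STM, KNAT1 and KNAT2, class I KNOX genes that FIL and YAB3 help to keep off in leaves, rose in each mutant, with log2 differences in the double mutant of 2.16, 3.32 and 3.46. LAS, a gene of axil meristems, was at least 1.5-fold higher in the double mutant. LAS was below background in WT and as1-1 and on 1 of 2 tfl2-1 arrays, so it entered the test only through the double mutant. In the list of 6, 3 rose and 1 fell in as1-1 (7.09% and 12.1% of all tested genes). In tfl2-1 4, LAS included, rose and 1 fell (26.2% and 28.4%), and in the double mutant 5 rose (30.8%). The gene that fell was the auxin synthesis gene YUC4 both times. It was above background on only 1 of 2 arrays in as1-1 and in tfl2-1. The KNOX genes were higher in as1-1 and the double mutant, where FIL, YAB2 and YAB3 were higher by the brightest probe of each. They were also higher in tfl2-1, where FIL, YAB2 and YAB3 did not pass by that probe. A link between YABBY and KNOX levels was not tested.

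Across the 8 arrays, which share 2 slides and 4 genotypes, the levels of FIL, YAB2 and YAB3 had Pearson r of 0.83 to 0.93 with each other, and each had r of 0.40 to 0.61 with YAB5. The genes with the most similar profile were sought among 20816 genes above background on all arrays, by the Euclidean distance between the 8 centred log2 levels. For YAB5 they were AT3G16670 (distance 0.906, r = 0.977), AT2G43590 (1.16, r = 0.963) and AT3G16660 (1.17, r = 0.979). For FIL the nearest was AT2G25510 (0.197, r = 0.979), for YAB2 the nearest with a locus was AT1G14170 (0.204, r = 0.965), and for YAB3 it was PRA1.B3 (AT5G05380, 0.109, r = 0.962). Between members, FIL lay 0.309 from YAB2 and 3.78 from YAB5. This distance grows with the range of the levels, which is widest for YAB5, so distances to the neighbours of different members are not compared.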

How the data were processed

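Per the labels' protocols, purified total RNA was converted to Cy3-labelled cRNA with a one-colour kit. The authors deposited 1 Agilent scanner file per array. Per the file headers, its intensity is background-subtracted, detrended and linear, and not scaled between arrays; the submitters' processing notes name Feature Extraction 10.7. The authors also deposited a value table of log2 scale, whose making and centring are not given in the sources used here (column medians 7.6809 to 7.6817, r with the log2 signal 0.9987 or more); it served as an alternative. Its direction runs with the signal.

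Control spots and the 67 outlier spots were left out. The log2 signal was centred on the 75th percentile of each array. Probes well above background on both arrays of at least 1 genotype were kept (30471, 69.9%), and each gene took its brightest kept probe. Probes were named through unversioned accessions in RefSeq TAIR10.1 (34285 matched, 9318 did not); the files' header names another build, so no coordinates are given. All 8 arrays entered 1 limma 3.58.1 fit in R 4.3.3 with a mean per genotype (4 residual and 2.06 prior degrees of freedom). Adjusted p are two-sided, Benjamini-Hochberg over all 22671 genes (19001 with a locus, the rest single accessions) or 30471 probes, threshold 0.05. The fit was tested on simulated data. The members, gene lists and named-gene rule (all members, and per list up to 4 called genes with the largest change in the double mutant) were chosen with earlier results of these data known. Same-numbered arrays did not deviate together (r -0.048 to 0.055). The number of arrays limits the precision. Proteins and promoters were not analysed here.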

Additional observations from a re-analysis of the deposited data

Results flagged for a closer look

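With 2 arrays per genotype no array could be judged against its group. The interaction test compares the effect of as1-1 in tfl2-1 plants with that in plants with TFL2. Among the YABBY, mutated, cofactor, abaxial, adaxial, regulated, regulator and floral genes it was passed in 16 cases. These were 0 of 5 YABBY genes but 1 FIL probe, 2 of 2 mutated, 1 of 6 cofactor, 2 of 5 abaxial and 1 of 6 adaxial genes. They were also 4 of 6 regulated genes, 2 of 6 regulators and, of 7 floral genes, 1 positive and 2 negative. Outside these lists, 5 of 16 leaf markers passed, all with a negative interaction, from -2.14 for LHCB2.1 to -0.30 for PSAD1. Of the carpel and ovule markers 0 of 5 passed, and of the tested root markers 0 of 4. Over all genes 10.6% passed with a positive and 9.67% with a negative interaction, over all probes 8.55% and 9.24%. On the log2 scale the interaction was 0.52 for the dimmer probe of FIL, while the brighter one gave 0.29 and did not pass (adjusted p = 0.143). It was 0.63 for KAN2 and 0.35 for ETT among the abaxial genes, 0.43 for REV and 0.38 for the cofactor gene SLK3. SPT gave 0.35, ANT 0.54 and YUC4 1.38. YUC4 was dim, above background on only 1 of 2 as1-1 and 1 of 2 tfl2-1 arrays. The KNOX genes gave 0.41 for STM, 0.40 for KNAT1 and 0.41 for KNAT2. For the mutated genes it was 0.83 for AS1 and 0.43 for TFL2. Of the floral genes, PI gave -1.44 and SEP3 -1.04. AP3 gave 1.24, but it was below background on all WT and as1-1 arrays, so this value is not read as a difference between effects. Both arms of each interaction were measured within 1 slide.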

How the results depend on the processing

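Of 574 recomputed log2 differences of single YABBY genes, 491 were rated as unchanged. Where a test was made, this means that direction and side of the threshold were kept. Under spike-in scaling, which has no test, it means a move smaller than the mean SD within genotypes, and 23 values moved by more. YAB5 and CRC kept their calls against WT in every fit with a test in tfl2-1 and the double mutant, as did YAB5 in as1-1 (1.56 to 1.65). The number of members called in as1-1 against WT was 4, and 2 without the filter on dim probes and when only the arrays of 1 slide were fitted; leaving out 1 array gave 2 to 4. CRC, below background in both, counted among these as lower without WT replicate 2 and with the replicate block, and the mean of the probes of a gene gave 3. In the double mutant against as1-1 it was 2, and 4 with normexp correction. With only probes above background on all arrays, which drops CRC, it was 1 there and 1 in tfl2-1 against WT. For the interaction it was 0, and 1 with the mean of the probes of a gene (FIL) and with replicate number as a block (CRC, adjusted p = 0.022); leaving out 1 array gave 0 to 1 (CRC, without WT replicate 2). Both CRC calls rest on a difference between WT and as1-1 values below background and are not read as an interaction. That block also brought FIL in as1-1 to an adjusted p of 0.0506. The cause of these moves was not tested beyond the smaller number of arrays or genes.

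Of 15 sign changes outside spike-in scaling, 14 were of values that passed in neither fit. The other was of a called rise, that of YAB3 in as1-1 (0.31, against -0.06 by its other probe). In tfl2-1 FIL ran from -0.17 to 0.02 with 1 array left out, YAB2 from -0.03 to 0.09 (-0.02 by another probe), and YAB3 from -0.01 to 0.04 (-0.05 with normexp, -0.01 with the mean of probes, -0.03 by its other probe). The other probe of YAB3 gave 0.16 between the double mutant and as1-1 and 0.19 for the interaction, and the mean of its probes 0.03 and 0.04 for the latter pair. For the YAB5 interaction the mean of probes gave 0.01 and the other probe 0.14. Scaling to spike-in probes, chosen after seeing the data and given without a test, moved the median of all genes by 0.12 in as1-1 plants, 0.10 for tfl2-1 and 0.29 for the double mutant. Over all genes, as1-1 gave 4352 calls, and 2024 without the filter, 2666 on 1 slide and 2262 to 2421 without WT replicate 1, as1-1 replicate 1 or as1-1 replicate 2. Calls between the double mutant and tfl2-1 numbered 7142, and 4359 without the filter and 4398 to 4710 without any 1 of their arrays. For the interaction they numbered 4597, and 1978 without the filter and 2718 to 3036 without any 1 array of the mutants. Dim signal limits CRC and INO.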
